A study of Mus musculus with 4 samples.

Results

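The genes of fatty acid and acyl-CoA binding proteins were followed in recruited renin cells of the mouse kidney. The members were chosen by name and not by their values: Dbi, Scp2, Cd36 and the fatty acid binding protein genes Fabp1 to Fabp7, which make 10 of the 32647 gene symbols in the table. All 10 were listed, and 9 of them were above 0 in at least 1 library. All samples came from a single condition. Adult C57BL/6 mice carrying Ren1c-YFP, a yellow fluorescent protein driven by the promoter of the renin gene Ren1c, were given a low salt diet with captopril in the drinking water at 0.5 g/L for a week, a treatment that recruits cells along the kidney arterioles to make renin. Fluorescent cells were sorted from digested kidney cortex, and cDNA amplified from a small pool of them was sequenced in 4 libraries. The libraries were the technical replicates A and B of biological samples 1 and 2, called here 1A, 1B, 2A and 2B. The sources do not say whether a biological sample was 1 animal, nor whether technical replicates shared cDNA or only a cell suspension. Every mouse carried the reporter and was treated, so no level can be set against an untreated one.

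Free fatty acids and their acyl-CoA esters are poorly soluble and disturb membranes, and cells carry them on small cytosolic proteins. Cd36 takes up long-chain fatty acids at the plasma membrane, the Fabp proteins hold fatty acids or bile acids inside a barrel of beta strands, Dbi holds the activated acyl-CoA form, and Scp2 carries sterols, fatty acids and acyl-CoA and serves in peroxisomes. In the kidney cortex, tubule cells are known for their use of fatty acids as fuel.

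Levels are in TPM, the abundance of transcripts scaled for their length and to the same total in every library, so genes can be compared. A level below is the mean of the 2 biological samples, each the mean of its 2 libraries, with the SD over the 2 samples. Total estimated counts ran from 19871382 in library 1A to 47471036 in library 2B, and 6405 to 8709 genes per library reached 1 TPM. Ren1, which encodes renin, was at 15933 to 29637 TPM. Of 10 renin cell markers 7 reached 1 TPM in every library, as did 7 of 8 smooth muscle markers. So did 12 of 16 proximal tubule markers, 9 of 14 markers of later tubule segments and 4 of 5 red blood cell markers. Endothelial, adipocyte, leukocyte, glial and intestinal markers did so in 20.0% or less of each list, beside 16.5% of genes above 0. These counts thus do not set renin cells apart from tubule or red blood cells. Ren1 exceeded the tubule genes Kap and Fxyd2 in every library, but in 2B these reached 11140 and 10973 TPM against its 15933 TPM. Library 1A stood apart from the rest in its red blood cell transcripts, which summed to 45.9 TPM over 5 genes against 5083, 5907 and 10803 TPM in 1B, 2A and 2B. The libraries also carried transcripts of other kidney cells in unequal amounts, which are given beside the members they move with. In such pools, fewer cells of a type and less RNA per cell cannot be told apart.

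The promoters of the members separated into CpG-rich and CpG-poor ones, and the 3 members found in every library had the CpG-rich ones. Stretches of 100 bases are shown, each just before the most upstream start annotated (RefSeq or GENCODE) within the window of the RefSeq promoter table, for these 3 genes and for the 2 that were at or near 0 everywhere (RefSeq, GRCm38.p6, 5′ to 3′ on the strand of the gene, capitals marking each CG).
Dbi, chr1:120121097-120121196, minus strand: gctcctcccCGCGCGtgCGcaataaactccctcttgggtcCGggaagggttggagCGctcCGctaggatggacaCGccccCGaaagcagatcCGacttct
Scp2, chr4:108118548-108118647, minus strand: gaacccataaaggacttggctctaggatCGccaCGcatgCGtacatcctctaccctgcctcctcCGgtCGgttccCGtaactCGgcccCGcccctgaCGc
Fabp3, chr4:130308495-130308594, plus strand: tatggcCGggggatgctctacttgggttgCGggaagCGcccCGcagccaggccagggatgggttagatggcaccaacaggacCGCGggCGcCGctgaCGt
Fabp2, chr3:122894972-122895071, plus strand: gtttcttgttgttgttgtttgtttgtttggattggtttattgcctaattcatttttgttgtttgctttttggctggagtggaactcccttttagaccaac
Fabp6, chr11:43601563-43601662, minus strand: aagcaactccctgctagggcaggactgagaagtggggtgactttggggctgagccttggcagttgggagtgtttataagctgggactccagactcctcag
CG occurred 10 times in the stretch of Dbi, 9 times in that of Scp2 and 9 times in that of Fabp3, and not at all in those of Fabp2 and Fabp6. For Scp2, 2 annotated transcripts start farther upstream, outside that window. Over the 300 bases of the RefSeq promoter table, Dbi had 28 CG (22 at its second start), Fabp3 had 22 and Scp2 had 17, while Cd36, Fabp1, Fabp2 and Fabp6 had 3 each and Fabp7 had 6. Of all 32851 promoters, 31.4% had 17 or more. This split was not particular to the family: among genes with a promoter entry, 67.4% of the 2368 at 1 TPM or more in every library had 17 or more CG, against 50.3% of the 10428 others above 0. TATAAA was present on at least 1 strand in the promoters of Fabp1 and Fabp6 (13.6% of all promoters) and GGGCGG in those of Scp2 and Cd36 (35.7%). AGGTCA followed after any 1 base by a second AGGTCA, the repeat known to bind peroxisome proliferator-activated receptors (PPARs), was on neither strand of any member's window and in 0.0396% of all. Only the exact repeat was searched, and not inexact copies of it. It is so rare that its absence from 8 windows does not tell whether these promoters hold a PPAR site. The 8 members matched in the promoter table leave out Fabp4 and Fabp5.

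The members fell into a few that were present in every library and many that were not. Dbi, Scp2 and Fabp3 reached 1 TPM in all 4 libraries, which is 3 of the 9 members above 0, beside 16.5% of the 19229 genes above 0 in 1 library or more. Between 5 and 6 members reached 1 TPM in each library, but beyond those 3 they were not the same from library to library. Fabp4 and Fabp5 each fell short in some, Fabp1 was present in 1A and 2B, Cd36 in 2A and 2B, and Fabp7 in 1A. The 10 members together made up 3053, 4728, 3024 and 4479 TPM in 1A, 1B, 2A and 2B, which was 0.302% to 0.473% of all transcripts. The sample means of this sum were close (3821 ± 98.3 TPM, SD, n = 2) although the libraries of each sample were not, and the sum was mostly Dbi, whose share ran from 64.4% in 2B to 91.5% in 1A. The other 9 members together came to 261 TPM in 1A, 713 TPM in 1B, 841 TPM in 2A and 1593 TPM in 2B.

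**Figure D1:**
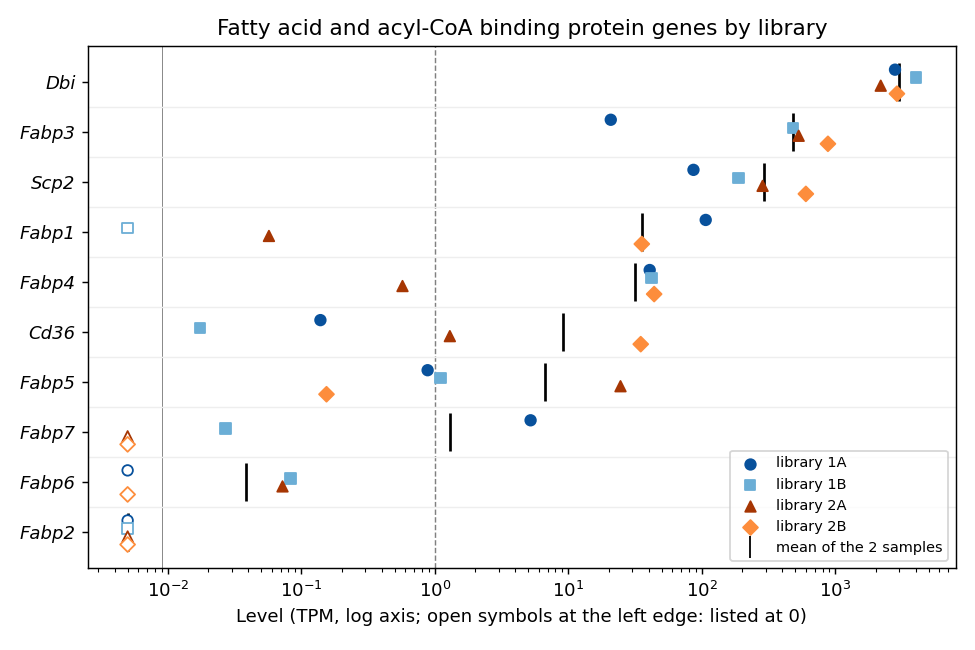
TPM of the 10 members (log axis) in libraries 1A, 1B, 2A and 2B; black bars are the means of the 2 biological samples, the dashed line marks 1 TPM and open symbols at the left edge are libraries in which the gene was listed at 0. Dbi stayed between 2182 and 4015 TPM, while Fabp1, Fabp3, Fabp4, Fabp5, Fabp7 and Cd36 each spread over more than 10-fold between libraries.

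Dbi, the acyl-CoA binding protein (also called diazepam binding inhibitor), was the most abundant member and the most even one. It lies at chr1:120113280-120121078 on the minus strand (GRCm38). Its levels were 2792 and 4015 TPM in 1A and 1B and 2182 and 2886 TPM in 2A and 2B. The ranges of the samples overlapped, and the sample means, 3404 and 2534 TPM, differed 1.34-fold. At 2969 ± 615 TPM (SD, n = 2) Dbi ranked 33 of all 32647 symbols, and in single libraries it ranked between 24 and 42. It was the only member whose range stood clear of its neighbour in the order of levels: its lowest library (2182 TPM) lay above the highest library of Fabp3 (878 TPM), and the levels of these genes differed 6.21-fold. Every other pair of neighbours, from Fabp3 and Scp2 down to Fabp6 and Fabp2, overlapped in range. The peptides cut from Dbi act on Tspo, a protein of the outer mitochondrial membrane. Tspo was at 157, 32.2, 476 and 357 TPM in 1A, 1B, 2A and 2B, higher in both libraries of sample 2, and its relative Tspo2 stayed at or under 0.0242 TPM.

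The other genes with an acyl-CoA binding domain were far lower than Dbi. Of 8, Acbd3 and Acbd6 reached 1 TPM in every library. Acbd6 was at 33.5, 67.2, 1.97 and 94.5 TPM in 1A, 1B, 2A and 2B, and Acbd3, a Golgi protein, at 23.5, 17.4, 10.5 and 2.28 TPM. Eci3, a peroxisomal enoyl-CoA isomerase that carries such a domain, was at 10.3 and 88.4 TPM in sample 1 and at 0.272 and 94.4 TPM in sample 2, so its technical replicates differed more than its samples. Acbd4, at 54.0 and 25.3 TPM in sample 1 and 3.86 and 0.0515 TPM in sample 2, was higher in both libraries of sample 1. Its relatives Eci2 (0.941 to 21.05 TPM) and Acbd5 (0.009997 to 5.17 TPM) were highest in 2A, and Acbd7 and Dbil5 were listed at 0 throughout.

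Scp2, the sterol carrier protein, was present in every library and higher in sample 2. It lies at chr4:108043839-108144998 on the minus strand. The levels were 86.4 and 188 TPM in 1A and 1B and 285 and 600 TPM in 2A and 2B, so the samples did not overlap. The sample means, 137 and 442 TPM, differed 3.23-fold, and the level was 290 ± 216 TPM (SD, n = 2). Within each sample the technical replicates differed about as much (2.17-fold and 2.11-fold), and the difference between samples stayed short of the 4-fold that was asked of a call. Transcripts of the later nephron (the loop of Henle, the distal tubule and the collecting duct) moved the same way, with sums over 14 markers of 3126, 5185, 7426 and 12708 TPM. Of these markers, 9 reached 1 TPM in every library and 8 met the rule for a higher level in sample 2. Fxyd2 made up most of the sums, and without it they were 137, 342, 1760 and 1735 TPM. Their part in the level of Scp2 was not tested. The ratio of Dbi to Scp2 was 32.3 in 1A, 21.4 in 1B, 7.67 in 2A and 4.81 in 2B, lowest where Scp2 was highest.

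Scp2 encodes a long thiolase form (547 residues, from the annotated transcript of 2640 bases) and a short carrier form (143 residues, from a transcript of 772 bases). The deposited table gives for each gene an effective length, averaged over its transcripts by their abundance in that library. For Scp2 it was 678, 845, 473 and 550 bases in 1A, 1B, 2A and 2B. All 4 values lay far nearer to the short transcripts, which are 527 to 911 bases long, than to the long one. Several short transcripts, such as that of 911 bases, are annotated without a coding sequence. The effective length does not tell the transcript of the carrier form from the other short ones. A processed copy, Scp2-ps2, was at 11.3 TPM in 1B and at 0.123 to 0.331 TPM in the other 3 libraries, and reads of Scp2 and this copy may have been divided between them. Of the 4 other genes with an SCP2 domain, Hsd17b4, a multifunctional enzyme of peroxisomal beta-oxidation, was present in every library at 5.01, 3.78, 17.9 and 18.1 TPM, again higher in both libraries of sample 2. Hsdl2 was at 19.7 TPM in 2A and at 0.0233 to 0.0995 TPM elsewhere, and Stoml1 (up to 0.327 TPM) and Scp2d1 (up to 0.0602 TPM) were near 0. Across 19 genes of peroxisomal oxidation, 8 reached 1 TPM in every library. The highest were Phyh, which starts the breakdown of branched fatty acids, at 237.6 TPM, and the thiolases Acaa1a and Acaa1b at 82.6 and 38.8 TPM.

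Fabp3, the heart type of fatty acid binding protein, was the main Fabp gene in 3 of the 4 libraries. It lies at chr4:130308595-130315463 on the plus strand. Its levels were 482, 530 and 878 TPM in 1B, 2A and 2B, but 20.8 TPM in 1A. The technical replicates of sample 1 thus differed 23.2-fold, more than the sample means of 251 and 704 TPM, which differed 2.80-fold. The level was 478 ± 320 TPM (SD, n = 2), and 593 TPM without 1A. Red blood cell transcripts moved with it, with 0.210%, 23.3%, 27.0% and 49.5% of their summed TPM in 1A, 1B, 2A and 2B, where Fabp3 had 1.09%, 25.2%, 27.7% and 45.9%. The markers of the later nephron had 11.0%, 18.2%, 26.1% and 44.7%. Most of this was Fxyd2, and the other 13 markers had 3.45%, 8.60%, 44.3% and 43.7%. Leukocyte markers, mostly Cd74 and H2-Aa, summed to 11.96, 467, 272 and 683 TPM over 14 genes, of which Cd74 alone reached 1 TPM in every library. The part of these cells in the level of Fabp3 was not tested. A pseudogene, Fabp3-ps1, was at 121 TPM in 1B and at 0.206 to 0.500 TPM in the other libraries, so the division of reads between gene and copy is uncertain in 1B.

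**Figure D2:**
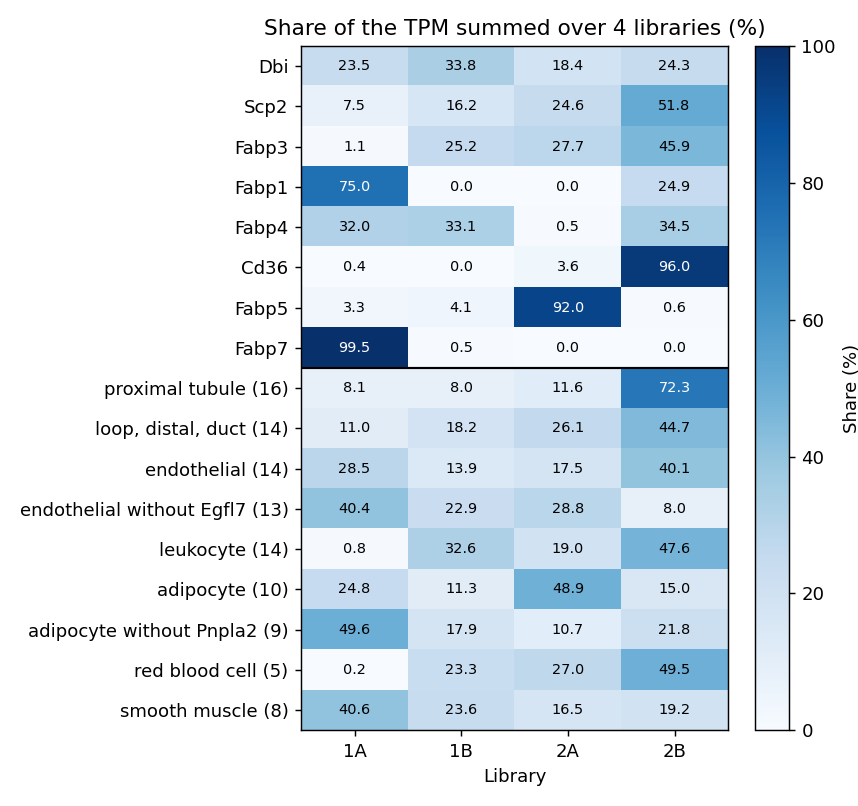
Share (%) of the TPM summed over the 4 libraries that each library held, for 8 members (above the line) and for 7 sets of cell type markers (below it, with the number of genes). An even gene has 25 in each cell; Dbi came near this, Fabp3 had 1.1 in library 1A as red blood cell transcripts had 0.2, and Cd36 had 96.0 in library 2B, where proximal tubule markers had 72.3. Endothelial and adipocyte markers are also shown without their most abundant gene, which changes the share of library 2B from 40.1 to 8.0 and that of library 2A from 48.9 to 10.7. Other lists also rest on 1 gene but are drawn only in full. Without Kap the proximal tubule markers had 49.8 in library 2B. Without Fxyd2 the loop, distal and duct markers had 3.4, 8.6, 44.3 and 43.7 in 1A, 1B, 2A and 2B.

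Fabp1, the liver type, was high in 1 library of each sample and near absent in the other. It lies at chr6:71199827-71205023 on the plus strand. It was at 107 TPM in 1A and listed at 0 in 1B, and at 0.0572 TPM in 2A and 35.5 TPM in 2B. In estimated counts these were 978, 0, 0.885 and 752, and 3 counts in 1B would have given 0.190 TPM. The level of 35.6 ± 25.2 TPM (SD, n = 2) thus hides a spread between technical replicates that is larger than that between samples. The deposited mean column leaves out 1A and gives 11.8 TPM, so the level over all 4 libraries was 3.00 times the authors' mean. Averaged over samples without 1A the level was 8.88 TPM. Fabp1 is known from human proximal tubule. The 16 proximal tubule markers summed to 1765, 1761, 2535 and 15847 TPM in 1A, 1B, 2A and 2B, with 12 of them at 1 TPM or more in every library. Kap made up 11140 TPM of the sum in 2B, and without it the sums were 1710, 1741, 1299 and 4707 TPM. Intestinal markers, which mark another tissue that makes Fabp1, summed to 0.0343 to 11.0 TPM (the highest being Vil1 in 2B). Of these, 7 of 9 were at 0 in every library. The part of these cells in the level of Fabp1 was not tested.

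Fabp4, the adipocyte type, which endothelial cells and macrophages also make, was even in 3 libraries and low in the remaining one. It lies at chr3:10204088-10208576 on the minus strand. It was at 40.6, 42.0 and 43.9 TPM in 1A, 1B and 2B and at 0.572 TPM in 2A. The samples overlapped, the level was 31.8 ± 13.5 TPM (SD, n = 2), and the technical replicates of sample 2 differed 76.7-fold. Of the adipocyte markers, Adipoq and Cfd, which define that cell type, were at 0 in every library, and of the 10 only Lipe and Pnpla2, both lipases, reached 1 TPM throughout. The 10 markers summed to 29.3, 13.4, 57.9 and 17.8 TPM in 1A, 1B, 2A and 2B, of which Pnpla2 made up 51.8 TPM in 2A. Without Pnpla2 the sums were 28.2, 10.2, 6.08 and 12.4 TPM. The full sum was thus highest in 2A and the sum without Pnpla2 lowest there. Endothelial markers summed to 102, 49.6, 62.3 and 143 TPM over 14 genes, of which Egfl7 made up 125.8 TPM in 2B, and without it to 87.4, 49.5, 62.2 and 17.3 TPM. Pecam1 and Emcn reached 1 TPM in every library, whereas Cldn5 was at 0 and Cdh5 at or under 0.0316 TPM. Of the leukocyte markers, Cd68, Lyz2, C1qa and C1qc, known from macrophages, were at 0 in all libraries, while Cd74 (10.2 to 351 TPM), H2-Aa (0.985 to 427 TPM) and Fcer1g (15.7 TPM in 1B, at or under 0.168 TPM elsewhere) were present. The part of these cells in the level of Fabp4 was not tested.

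Fabp5, the epidermal type, was found mainly in 2A, the library in which Fabp4 was lowest. It was at 0.882 and 1.10 TPM in sample 1, 24.6 TPM in 2A and 0.154 TPM in 2B. The level was 6.67 ± 8.03 TPM (SD, n = 2), and 92.0% of the TPM summed over libraries lay in 2A. Fabp5 and Fabp4 belong to the same cluster of chromosome 3, in which Fabp5, Pmp2, Fabp9, Fabp4 and Fabp12 follow each other over 288.6 kb. Their neighbours were near 0: Pmp2 was listed at 0, Fabp9 reached 0.0444 TPM and Fabp12 reached 0.534 TPM.

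The transcripts counted as Fabp5 were not of the same kind in the 4 libraries. Fabp5, at chr3:10012548-10016607 on the plus strand, has a protein-coding transcript of 987 bases with 4 exons, and a second annotated transcript of 3238 bases that keeps introns 1 (2252 bases) and 2 (328 bases) and joins only its last exons. The junctions that tell them apart are shown from GRCm38, 30 bases on each side, with intron bases in capitals.
Exon 1 joined to exon 2, chr3:10012689-10012718 and chr3:10014971-10015000: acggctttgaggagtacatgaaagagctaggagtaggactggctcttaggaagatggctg
Exon 1 running into intron 1, chr3:10012689-10012748: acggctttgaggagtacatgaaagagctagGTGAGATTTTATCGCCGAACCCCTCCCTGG
Exon 2 joined to exon 3, chr3:10015114-10015143 and chr3:10015472-10015501: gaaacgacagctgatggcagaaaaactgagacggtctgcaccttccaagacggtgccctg
Exon 2 running into intron 2, chr3:10015114-10015173: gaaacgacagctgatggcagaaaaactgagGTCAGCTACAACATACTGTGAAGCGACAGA
The effective length of Fabp5 was 621 bases in 2A but 2657, 3039 and 2538 bases in 1A, 1B and 2B. Genes with a single annotated transcript of 900 to 1100 bases had median effective lengths of 681, 790, 556 and 619 bases in 1A, 1B, 2A and 2B, so the value in 2A is that of a short transcript. In 1A 1 of 80 such genes, in 1B 0 of 50 and in 2B 0 of 39 reached the length recorded for Fabp5. By this measure the TPM in these 3 libraries was assigned mostly to the transcript with retained introns. In 2A it was assigned mostly to the spliced one. The estimated counts were 63.6, 137, 2986 and 25.7 in 1A, 1B, 2A and 2B. They were rebuilt from TPM with a gene length common to all libraries, so they do not count the reads of either transcript. Effective lengths carry corrections for sequence bias and can exceed the annotated length, as for Fabp12 (2877 bases in 1A, where its longest transcript is 2512 bases). Reads from unspliced RNA or genomic DNA would be assigned in the same way as the annotated transcript, and these were not told apart. Fabp4 has a similar transcript of 4231 bases, but its effective length stayed at 798, 844, 600 and 728 bases, near the 896 bases of its coding transcript. The effective lengths of Fabp3 (331 to 436 bases, for an annotated 823) and of Dbi (275 to 360 bases) varied by less than 1.5-fold.

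**Figure D3:**
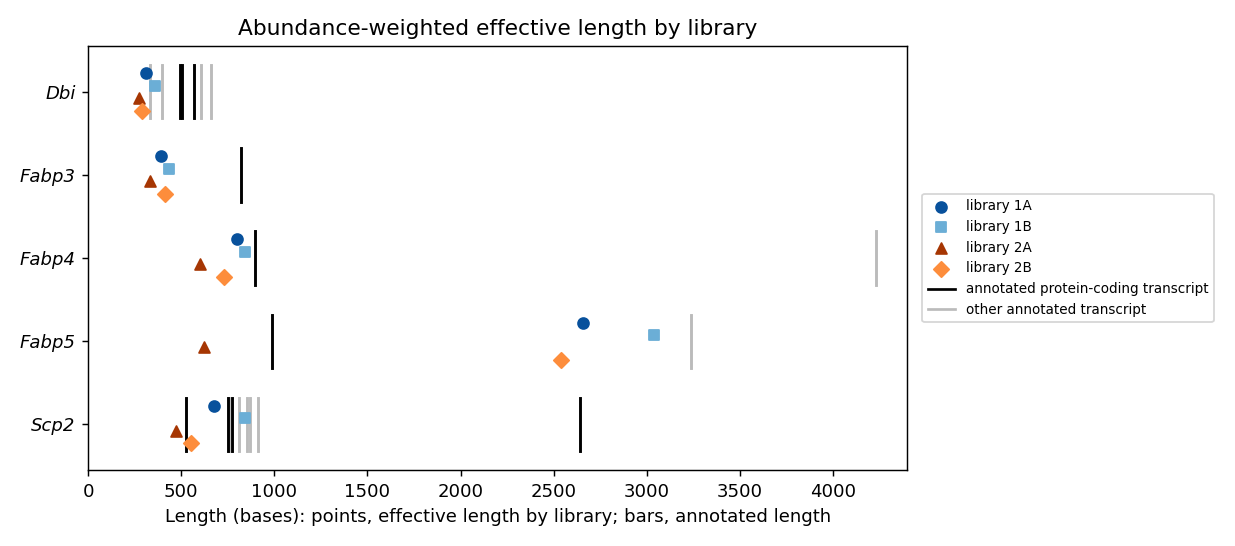
Effective length in bases of 5 members in each library (points), with the lengths of annotated transcripts as vertical bars (black, protein-coding; grey, other). Fabp5 lay at 621 bases in library 2A and near its intron-retaining transcript of 3238 bases in the other 3; the other genes stayed near their short transcripts in every library.

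Cd36, the fatty acid translocase, was the only member called apart between the samples. It lies at chr5:17781690-17888801 on the minus strand. It was at 0.139 and 0.0174 TPM in sample 1 and at 1.29 and 34.8 TPM in sample 2. The samples did not overlap and their means differed 17.7-fold on TPM + 1. This made 1 of 9 members with sample 2 higher, beside 4.12% of all genes above 0, and 0 of 9 with sample 1 higher, beside 6.9%. With estimated counts scaled to equal totals (CPM) in place of TPM, Cd36 was again the only member called, and the background was 4.36% and 11.7%. These counts were rebuilt from the same TPM, so this was a rescaling and not a separate measure. The call rested on 2B, which held 96.0% of the TPM of Cd36: without it the level fell from 9.06 ± 12.7 TPM (SD, n = 2) to 0.686 TPM and the call was lost. In that library the proximal tubule markers held 72.3% of their summed TPM, and Kap, a protein of proximal tubule cells, was at 11140 TPM against 19.8 to 1236 TPM elsewhere. Without Kap the other 15 markers held 49.8% there. The endothelial markers held 40.1% there with Egfl7 and 7.98% without it. The part of these cells in the level of Cd36 was not tested. Scarb1 and Scarb2, the other receptors of the Cd36 family, had a different distribution. Scarb2, a lysosomal membrane protein, was at 27.0 and 20.9 TPM in sample 1 and 5.60 and 0.438 TPM in sample 2, and Scarb1, which binds high density lipoprotein, was at 1.502, 1.62, 9.41 and 0.330 TPM.

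Of 18 genes for fatty acid transport and activation, 3 reached 1 TPM in every library, close to the background. These were the acyl-CoA synthetases Acsm2 (53.6, 172, 94.6 and 543 TPM in 1A, 1B, 2A and 2B), Acss1 (10.6, 4.53, 15.5 and 80.2 TPM) and Acsl1 (14.1, 33.3, 24.8 and 5.86 TPM). Slc27a2, a fatty acid transporter of the proximal tubule, was at 37.7, 22.7 and 0.528 TPM in 1A, 1B and 2A and at 387 TPM in 2B. Acsm2, Acss1 and Slc27a2 were thus highest in the same library as Cd36, while Acsl1 was lowest there.

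Fabp2 and Fabp6 were at or near 0 in every library, and Fabp7 in every library but 1A. Fabp7, the brain type, at chr10:57784881-57788450 on the plus strand, was at 5.21 TPM in 1A and 0.0270 TPM in 1B and was listed at 0 in 2A and 2B, where 3 counts would have given 0.0839 and 0.0612 TPM. Library 1A held 99.5% of its TPM, and without that library its level fell from 1.31 ± 1.85 TPM (SD, n = 2) to 0.0135 TPM. Schwann and glial markers summed to 6.04, 11.8, 2.05 and 0.346 TPM, mostly S100b, and without S100b to 1.44, 0.304, 1.203 and 0.143 TPM, with 0 of 8 at 1 TPM in every library and Gfra3 and Egfl8 at 0. Their part in the level of Fabp7 was not tested. Fabp6, the bile acid carrier of the ileum, at chr11:43596049-43601540 on the minus strand, was at 0.0831 TPM in 1B and 0.0723 TPM in 2A, about 1 estimated count each (1.03 and 0.874), and at 0 in 1A and 2B. Fabp2, the intestinal type, at chr3:122895072-122899506 on the plus strand, was listed at 0 in all 4 libraries, where 3 counts would have given 0.0560 to 0.130 TPM, so a lower level could not have been detected. Of 8 other intracellular lipid binding protein genes in the table, 0 reached 1 TPM in every library. Rbp7, a retinol binding protein, reached 3.64 TPM in 1A, while Crabp1, Crabp2 and Rbp2 were listed at 0.

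The make-up of the Fabp transcripts therefore differed in library 1A. The 7 Fabp genes summed to 174, 525, 556 and 958 TPM in 1A, 1B, 2A and 2B. Fabp3 made up 91.8%, 95.5% and 91.7% of this in 1B, 2A and 2B, but 11.9% in 1A, where Fabp1 made up 61.3% and Fabp4 23.3%. Accordingly, Dbi exceeded Fabp3 134-fold in 1A and 8.33-fold, 4.12-fold and 3.29-fold in 1B, 2A and 2B. These genes encode proteins of one fold: each Fabp member has 4 coding exons and 127 to 135 residues, and the 21 pairs were 26.2% to 65.9% identical (median 32.3%). Likeness of sequence and likeness of level did not go together at the extreme, since the closest pair, Fabp3 and Fabp7 (65.9% identical), were at 478 and 1.31 TPM. Fabp3 and Fabp4, which were 64.4% identical, were at 478 and 31.8 TPM.

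**Figure D4:**
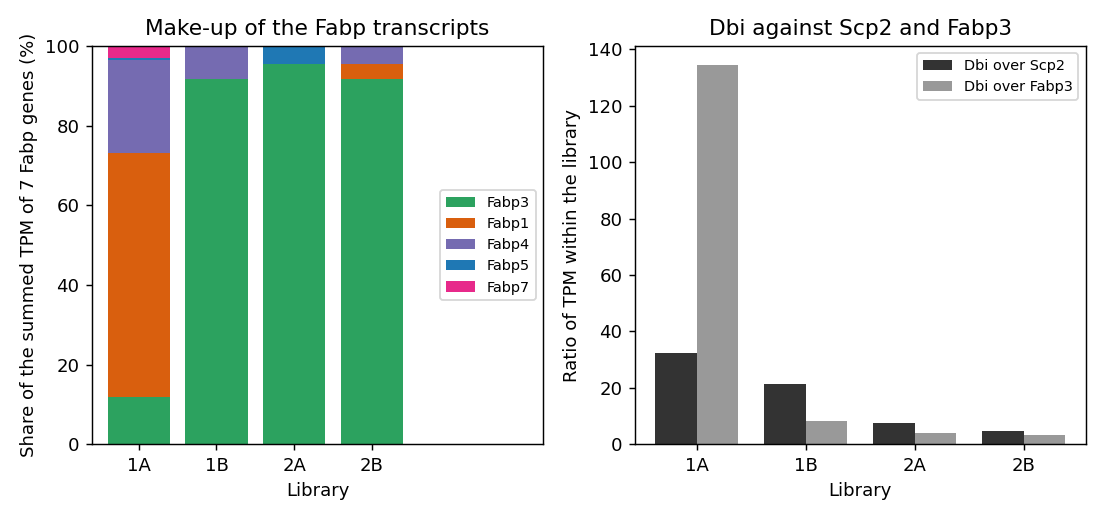
Left, share (%) of the summed TPM of the 7 Fabp genes taken by each gene in libraries 1A, 1B, 2A and 2B; right, TPM of Dbi divided by that of Scp2 (black) and of Fabp3 (grey) in the same library. Fabp3 made up over 90% of the Fabp transcripts in 3 libraries and 11.9% in library 1A, where Dbi exceeded Fabp3 134-fold.

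The technical replicates set how far these levels can be read. By a rule chosen after the values were seen, a gene at 10 TPM or more in either replicate was counted where its replicates were 10-fold or more apart on TPM + 1. In sample 1 this held for 2 of 5 members tested, Fabp1 and Fabp3, beside 30.9% of all 5234 genes tested. In sample 2 it held for 4 of 7 members, Cd36, Fabp1, Fabp4 and Fabp5, beside 39.8% of 5048 genes. For Dbi and Scp2, which were among those tested, replicates differed at most 2.17-fold in either sample. By the gap of 1 library to the other 3 (Dixon's test for a single outlying value), 4 of 9 members stood out, beside 44.1% of genes above 0. The shares of members were thus in the range of other genes, and for Fabp1, Fabp3, Fabp4 and Fabp5 the spread between the technical replicates of a sample was larger than the difference between samples. In sample 1 this also held for Dbi, whose replicates differed 1.44-fold and whose sample means differed 1.34-fold. It held there for Fabp7 too, with replicates at 5.21 and 0.0270 TPM and sample means of 2.62 and 0 TPM.

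Genes of receptors that sense fatty acids reached 1 TPM in some libraries at most, and some of their target genes in all. PPARs are nuclear receptors that bind fatty acids, and several Fabp proteins are known to deliver ligands to them. Of the 8 PPAR and RXR genes and coactivators, 0 reached 1 TPM in every library and 7 did so in at least 1, and their median level was 2.23 TPM. Ppara was at 15.6 TPM in 2A and at or under 0.277 TPM elsewhere, Pparg at 6.54 TPM in 1A and at or under 0.138 TPM elsewhere, and Ppard at 5.70, 0.588, 0 and 1.13 TPM in 1A, 1B, 2A and 2B. The partner Rxrb was at 11.8, 3.16, 0.0509 and 1.69 TPM. Rxra was at 1.18 TPM in 1A and 6.43 TPM in 2B, and Rxrg reached 0.200 TPM in 1A. The coactivators Ppargc1a (0.738 to 3.65 TPM) and Ppargc1b (0.00724 to 9.504 TPM) varied as well. Of 38 known PPAR targets, a list without the members, 14 reached 1 TPM in every library, and their median level was 10.6 TPM, beside 16.5% and 1.33 TPM over all genes above 0. The highest were Txnip at 180 TPM, and the thiolases Acaa2 at 105 TPM and Acaa1a at 82.6 TPM. Many of these targets serve fatty acid oxidation in any cell, and receptor activity was not measured. Of 6 lipid-sensing surface receptors, Ffar1 alone reached 1 TPM in any library (1.73 TPM in 1A), and 0 did so in all.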

How the data were processed

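RNA from sorted recruited renin cells was measured by RNA-seq in 4 libraries (2 biological samples, 2 technical replicates each). The authors trimmed reads with Trimmomatic 0.36, quantified them with Salmon 0.7.2 against GRCm38/Ensembl transcripts, of a release not given in the sources used here, and summed to genes with Tximport 1.2.0 (lengthScaledTPM). The deposited table holds TPM, estimated counts (rebuilt by the authors from TPM, length and library size, not whole reads) and effective lengths in bases. The deposited mean TPM equals the mean of 1B, 2A and 2B (0 rows differ by more than 1e-06) and leaves out 1A.

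Levels, counts and calls were computed with Python 3.11.15, pandas 2.3.3 and numpy 2.4.6, and drawn with matplotlib 3.10.9. A gene was called apart between samples where the libraries of the samples did not overlap and their means differed 4-fold or more on TPM + 1. There is 1 condition, so no p-value was computed. Since cDNA of few cells was amplified with no molecular identifiers, totals of estimated counts do not give molecules, and the limits from 3 counts cover counting error only. The rule for genes apart between samples was tried on simulated levels whose replicates lay far closer together than those here. The Dixon rule was tried on independent normal values. Neither trial shows how often the rules err in these data. Transcripts and positions come from GENCODE M21 (31475 of 32647 symbols found) and promoters from RefSeq (GRCm38.p6; 8 of 10 members matched). Proteins were translated from GENCODE coding sequences and aligned with Biopython 1.88, in place of the RefSeq proteins that were planned. Members and gene lists were chosen with earlier results of these data known. Named were all members, all genes of the related families and of the PPAR list, the 3 highest genes of other lists and those that a count of 5 or fewer concerns. Some genes of these lists are not reported here. Others, such as Kap, were named after their values were seen. Marker sums without the most abundant gene of a list were likewise added after the full sums were seen. Alternatives left out libraries or samples and changed the averaging, scaling, minimum level, fold, pseudocount and background.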

Additional observations from a re-analysis of the deposited data

Results flagged for a closer look

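In 4 of the 11 quantities examined (9 members and 2 sums), 1 library lay so far from the other 3 that the gap exceeded Dixon's critical value. Cd36 was highest in 2B at 34.8 TPM and Fabp5 was highest in 2A at 24.6 TPM. Fabp7 was highest in 1A at 5.21 TPM, whereas Fabp4 was lowest in 2A at 0.572 TPM. Chance alone flags about 1 in 20 such groups of independent samples, but 44.1% of all 19229 genes above 0 were flagged here, so 4 of 9 members is close to the background. Each flag concerns a single technical replicate whose partner from the same sample differed from it: Cd36 was at 1.29 TPM in 2A, Fabp5 at 0.154 TPM in 2B, Fabp7 at 0.0270 TPM in 1B and Fabp4 at 43.9 TPM in 2B.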

How the results depend on the processing

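No paired analysis was possible because all libraries share 1 condition. The count of members at 1 TPM or more in every library was 3, and 3 or 4 under all alternatives run: Fabp4 joined without 2A, without sample 2 or at a minimum of 0.5 TPM, and Cd36 joined without sample 1. The summed TPM of 3821 was 4240, 3402, 4185 and 3457 without 1A, 1B, 2A and 2B, and was 4490 after rescaling without mitochondrially encoded genes and 6943 without the 20 highest genes. The count of members apart between samples was 1 (Cd36). It was 4 with a minimum fold of 2 or with none (Cd36, Scp2 and Fabp3 higher in sample 2, Fabp7 higher in sample 1), where the backgrounds were 6.70% and 13.5%, and 9.21% and 24.2%. With a pseudocount of 0.1 TPM it was 2 (Cd36 and Fabp7; background 5.71% and 13.3%). Leaving out single libraries, an alternative chosen after seeing the data, gave counts from 2 to 5. Without 2B these were Fabp4 and Fabp5 and not Cd36 (background 7.83% with sample 2 higher and 10.7% with sample 1 higher). Without 1A they were Cd36 and Fabp1 (8.76% and 7.60%), without 2A Cd36 and Scp2 (7.44% and 12.2%), and without 1B 5 members (5.74% and 10.7%), with Fabp1 then higher in sample 1 and not, as without 1A, in sample 2. The rule is easier to meet with 3 libraries. Levels that moved over 1.5-fold without a library were those of Cd36 (0.686 TPM without 2B, 17.4 without 2A), Fabp5 (0.573 without 2A, 12.8 without 2B), Fabp7 (0.0135 without 1A, 2.60 without 1B), Fabp1 (8.88 without 1A, 62.2 without 1B), Fabp4 (20.9 without 2B) and Fabp6 (0.0181 to 0.0596). Fabp2 and Fabp6 were under the limit of 3 counts in every library, so their levels could not be measured at this depth.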
